A study of Mus musculus with 8 samples.

Results

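The 5 tumours that received antisense oligonucleotides (ASOs) against Smyd3 were divided by how much Smyd3 transcript they still held, and 3 with strong knockdown were compared with 2 with weak knockdown. These 5 are members of a set of 8 tumours, and the other 3 received control ASOs. The Smyd3 count of each tumour was divided by its column total and expressed as a percentage of the mean of the 3 controls. Tumours below 60% were called strong and those at 60% or more weak. The values that chose the groups are thus Smyd3 levels, and the division was chosen by them alone. All 8 were flank tumours of C57BL/6 mice that had been given MOC1 cells, a murine squamous carcinoma line labelled as oral tongue. Every animal, controls included, was given anti-PD-1, an antibody against a checkpoint receptor of T cells, with its ASOs for 32 days. The tumours were resected, snap-frozen and sequenced as polyA RNA. The labels mark 2 of the 5 Smyd3 ASO tumours as responders and 2 as non-responders, marks given by outcome and not by randomisation, and leave 1 without a mark. The strong group holds responder 3, non-responder 2 and the unmarked tumour, called here the tumour without a mark. The weak group holds responder 1 and non-responder 1, so the marks are spread over both groups.

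Smyd3 encodes a lysine methyltransferase of the SET and MYND domain family that modifies histones and cytoplasmic proteins, among them a kinase upstream of ERK. An ASO is a short synthetic strand that pairs with a transcript and, in the common design, has it cut by RNase H. A bulk tumour sample counts transcript from host cells as well as from tumour cells. Interferons are secreted proteins that switch on antiviral and antigen presentation genes, and cells make type I interferon when their sensors meet foreign or misplaced nucleic acid.

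Smyd3 (ENSMUSG00000055067.15) lies on the minus strand of mm10 chromosome 1 between bases 178951960 and 179518041. It stood at 10.4, 11.5 and 10.8 CPM (the count scaled to the column total) in the controls. In the weak tumours it was 9.02 CPM in responder 1 and 9.01 CPM in non-responder 1, which is 83.1% and 82.9% of the control mean. In the strong tumours it was 4.53 CPM in the tumour without a mark, 4.44 CPM in responder 3 and 5.07 CPM in non-responder 2, or 41.7%, 40.9% and 46.6%. The 60% line thus falls in a wide gap between 46.6% just inside and 82.9% just outside, and both weak tumours lay below every control. These values chose the groups and were not tested. They rest on 112 to 121 Smyd3 counts in the strong and on 201 and 214 in the weak tumours, and the division was the same with the trimmed mean (TMM) scaling used for all values below.

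The genes beside Smyd3 showed no loss of that size. On one side lie Gm38300, Efcab2 and Kif26b, and on the other Tfb2m, Cnst and Sccpdh. Their strong minus weak log2 differences ran from -0.49 in Gm38300 to 0.35 in Kif26b, and none passed the test. Tfb2m, a transcription factor of mitochondria, was at 28.8 and 30.2 CPM in the weak and 28.6, 25.5 and 26.8 CPM in the strong tumours, so its groups nearly touched. Gm38300, at 1.74 and 1.34 CPM in the weak and 0.958 to 1.16 CPM in the strong tumours, and Tfb2m had all strong tumours below both weak ones, and the other 4 overlapped.

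**Figure D1:**
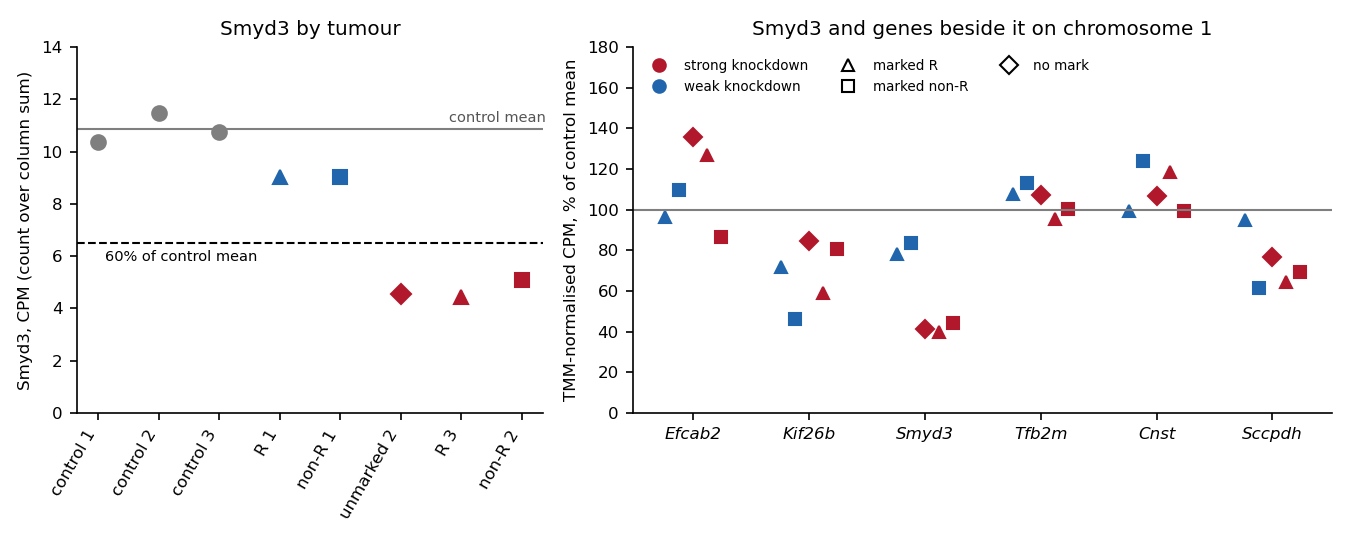
Smyd3 level in each tumour (left, CPM of the column total on a linear axis from 0, with lines at the control mean and at 60% of it) and 5 of the tested genes beside it (right, TMM-normalised CPM as percent of each gene's control mean, without the predicted gene Gm38300). The 3 strong tumours sit at 4.44 to 5.07 CPM and the 2 weak tumours at 9.01 and 9.02 CPM, and no neighbouring gene on the right shows a gap of that size.

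The libraries held 22103853 to 27258700 expected counts, mitochondrial genes took 1.94% to 2.58% of them, and the 10 most abundant genes 5.33% to 7.46%. Keratin genes of basal squamous cells were abundant throughout, as known for squamous tumours, with Krt5 between 6771 and 14496 CPM and Krt14 between 6756 and 14065 CPM. The labels give each tumour its own number but do not say more about its animal, so p-values measure the spread between these samples. Over all tested genes the 2 weak tumours were not a tight pair. Their root mean square log2 difference was 0.845, against 0.686 to 0.864 among the strong tumours and 0.686 to 1.08 between a weak and a strong one. Responder 1 was closer to each of the 3 strong tumours than to non-responder 1.

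No gene passed the threshold between strong and weak knockdown. Of 16910 genes besides Smyd3, 0 passed a false discovery rate (FDR) of 0.05 in edgeR's quasi-likelihood test, the lowest FDR was 0.716, and 1084 (6.41%) had an unadjusted p below 0.05. DESeq2 called 15 genes and limma voom 0. With 3 tumours against 2 a single value can be divided in 10 ways, so an exact two-sided permutation test cannot go below 0.2. The comparison is therefore described by values, by medians of gene lists, and by separation, which means that every strong tumour lay above, or below, both weak ones. Over all genes 1953 (11.5%) separated above and 2082 (12.3%) below, and the log2 difference lay above 0 in 51.9% and below 0 in 48.1%, with a median of 0.013.

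The smallest p among genes higher in the strong tumours belonged to Icam1, the adhesion molecule by which lymphocytes hold on to other cells. Icam1 was at 62.1 CPM in responder 1 and 59.5 CPM in non-responder 1, and at 100 CPM in the tumour without a mark, 99.9 CPM in responder 3 and 93.4 CPM in non-responder 2. The controls held 49.9, 46.6 and 51.3 CPM, so the weak tumours lay just above the controls and the strong tumours well above both. The log2 difference between strong and weak was 0.69 (SE 0.10, unadjusted p = 0.000142, FDR 0.716, edgeR). Within the 2 responders it was 0.69 and within the 2 non-responders 0.65, each from 1 tumour against 1. In group means, Icam1 stood at 97.9 ± 3.84 CPM (SD, n = 3) in strong, 60.8 ± 1.85 (n = 2) in weak and 49.3 ± 2.41 (n = 3) in control tumours.

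The other genes of smallest p on this side, none of which passed, have varied textbook roles. Olr1, a scavenger receptor for oxidised lipoprotein, was at 2.19 and 1.43 CPM in the weak and 26.1, 13.0 and 12.5 CPM in the strong tumours, with controls at 1.38 to 3.82 CPM. Gphb5, a glycoprotein hormone subunit, was at 2.15 and 1.15 CPM in the weak and 13.6, 9.71 and 4.44 CPM in the strong ones. Herpud1, a gene of the endoplasmic reticulum stress response, was at 135 and 107 CPM in the weak and 181, 219 and 177 CPM in the strong tumours. In these 3 genes the weak tumours lay closer to the controls than the strong tumours did. The remaining genes were Dmpk (log2 difference 0.91), Mettl7a1 (0.85), the lysosomal mannosidase Man2b2 (0.54), Crisp1 (1.87), Tent5c (0.99), Znfx1 (0.60), Taok3 (0.62) and St5 (0.65). In Man2b2, Crisp1 and Taok3 the weak tumours lay below all controls, with Crisp1 at 6.81 and 5.57 CPM in weak and 19.2 to 26.0 CPM in control tumours.

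Among genes lower in the strong tumours, Rbmx, an RNA-binding protein of splicing, and Tmpo, a protein of the nuclear lamina, had the smallest p. Tmpo was at 199 and 202 CPM in the weak tumours and 144, 148 and 148 CPM in the strong ones. The controls, at 171 to 176 CPM, lay between the groups, so the weak tumours were above and the strong tumours below them. Its log2 difference was -0.45 (SE 0.09, unadjusted p = 0.0014), and that of Rbmx -0.50 (SE 0.10). Yrdc (-0.54), Tomm5 (-0.59) and Rrs1 (-0.65), the last a factor of ribosome assembly, had the weak tumours above all controls. Prss35 (-1.98), Spef1 (-1.10), Mab21l3 (-0.72), Rnf152 (-1.32) and Plk2 (-0.55) had the strong tumours below all controls. Fam213a (-1.25) and Ndufa4l2 (-1.17) stood highest in non-responder 1, with Ndufa4l2 at 211 CPM there and 65.5 to 104 CPM in the other 4.

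Genes of the type I interferon response stood higher in the strong tumours as a group. Of 34 measured members all 34 had a log2 difference above 0, with a median of 0.74, and 28 separated above (82.4%, beside 11.5% of all genes). None passed the FDR threshold, and 15 had an unadjusted p below 0.05. The list score, which is the mean log2 CPM of the members, was 6.00 in responder 1 and 5.17 in non-responder 1. It was 6.44 in the tumour without a mark, 6.52 in responder 3 and 6.20 in non-responder 2, and 4.78 to 5.35 in the controls. The 5 tumours thus fell in an order in which non-responder 1 lay within the control range, responder 1 above every control and the strong tumours above both.

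Rsad2, which encodes the antiviral enzyme viperin, was at 14.1 CPM in responder 1 and 11.5 CPM in non-responder 1, against 20.6 CPM in the tumour without a mark, 32.7 CPM in responder 3 and 25.6 CPM in non-responder 2. The controls held 9.31 to 14.2 CPM. Both weak tumours thus lay within the control range and the strong tumours above it, with a log2 difference of 1.04 (SE 0.26, unadjusted p = 0.00449, FDR 0.716). Stat2, a subunit of the transcription factor that type I interferon activates, followed another course, since both weak tumours lay above the controls. It was at 158 and 129 CPM in the weak, 208, 234 and 212 CPM in the strong and 84.9 to 115 CPM in the control tumours (log2 difference 0.60, SE 0.16). Oas2, an enzyme that starts the decay of viral RNA, was at 48.9 and 36.3 CPM in the weak and 70.3, 106 and 83.4 CPM in the strong tumours. Dhx58, a helicase that tunes RNA sensing, was at 35.0 and 19.9 CPM in the weak and 50.6, 59.3 and 40.0 CPM in the strong ones. In all 4 genes the lowest strong tumour exceeded the higher weak tumour, which was responder 1 each time.

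The promoters of these genes are shown because many members share a letter pattern there. Interferon-activated complexes that hold Stat2 and Irf9 are known to bind repeats of GAAA, and the motif searched was GAAA, any 2 bases and GAAA again, on both strands, in windows of 300 bases around each start site (250 before, 50 after) from RefSeq on GRCm38.p6. Below are 60 bases of the Rsad2 promoter (chr12:26456538-26456597, minus strand) and of the Stat2 promoter (chr10:128270251-128270310, plus strand), with the match, here on the opposite strand, in capitals.
Rsad2: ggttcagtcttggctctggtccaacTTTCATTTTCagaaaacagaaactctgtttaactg
Stat2: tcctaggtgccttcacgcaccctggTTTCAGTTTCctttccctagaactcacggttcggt
The match lies 120 to 111 bases before the start site in Rsad2 and 222 to 213 bases before it in Stat2. Of 25 members of the list found in the promoter table, 16 (64%) held the motif, against 481 of 12114 tested genes (3.97%) and 1131 of all 32851 promoters (3.44%). The share was as high in the interferon gamma list (11 of 17, 64.7%), whose list score did not divide the tumours. It was lower in the nucleic acid sensing list (3 of 15, 20%), whose list score did. Those 3 were Ddx58, Ifih1 and Eif2ak2, which the type I list also holds. Across tested genes with a promoter, 92 of 481 with the motif separated above (19.1%) and 1353 of 11633 without it (11.6%). Outside the interferon, sensing and MHC class I lists these shares were 77 of 449 (17.1%) and 1338 of 11596 (11.5%). A match describes letters and is no measured binding site.

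The difference in the type I list was seen within both marks but was not equal in size. The list score differed by 0.52 between responder 3 and responder 1, and by 1.03 between non-responder 2 and non-responder 1. The median was 0.38 without non-responder 1 and 1.19 without responder 1. With 1 of the 5 tumours left out, 28 to 34 of the 34 members separated, and 17.7% to 33.6% of all genes. Leaving out a tumour can only keep or raise such a count, so its lower end was fixed in advance. The summed level of cytotoxic lymphocyte transcripts was 58.8 and 113 CPM in the weak and 112 to 320 CPM in the strong tumours. Responder 1 lay level with the lowest strong tumour there, so these sums did not divide the groups. The part of these cells in the interferon difference was not tested. In bulk tissue, fewer cells of a type and less RNA per cell cannot be told apart.

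**Figure D2:**
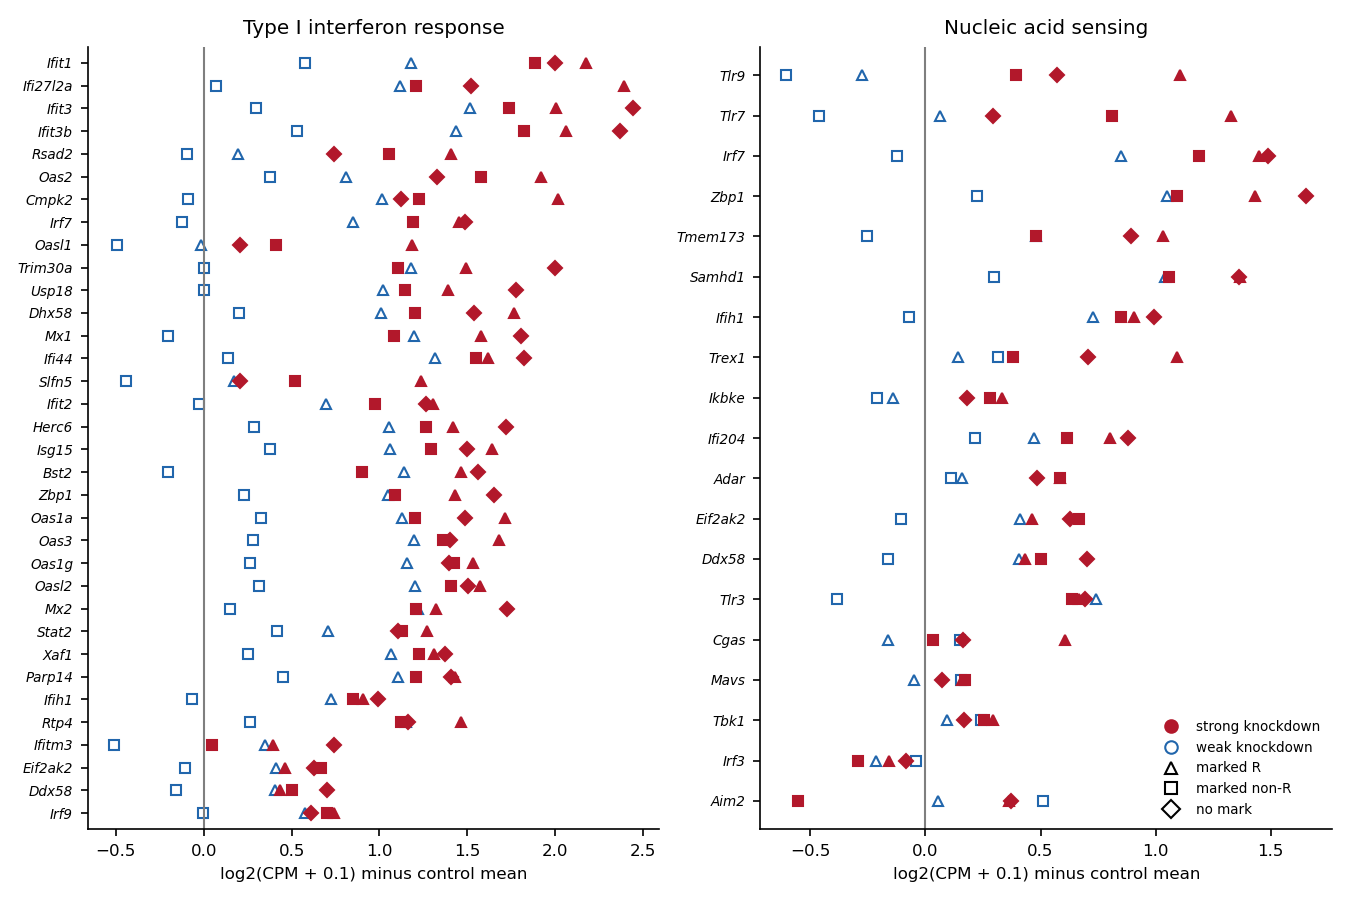
Level of each member of the type I interferon list (left) and of the nucleic acid sensing list (right) in the 5 Smyd3 ASO tumours, as log2 of CPM plus 0.1 minus the mean of the controls, with filled symbols for strong and open symbols for weak knockdown and shapes for the response mark. In 28 of 34 and 13 of 19 members the 3 strong tumours lie to the right of both weak tumours, in Tmem173 by a margin too small to see. The open square of non-responder 1 is mostly the lowest point on the left.

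Sensors of nucleic acid and their adaptors also stood higher in the strong tumours. Of 19 measured members 17 lay above 0 (median 0.42), and 13 separated above (68.4%, beside 11.5% of all genes). An unadjusted p below 0.05 was found for 8. The list shares Ddx58, Ifih1, Irf7, Zbp1 and Eif2ak2 with the type I list. Of the 14 members it does not share, 8 separated above, beside 11.5% of all genes. The list score was 5.54 and 5.22 in the weak, 5.88, 5.99 and 5.72 in the strong and 5.05 to 5.39 in the control tumours, and it differed by 0.44 within responders and 0.49 within non-responders.

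The list holds 3 receptors that detect nucleic acid in endosomes, of which Tlr9 and Tlr7 separated and Tlr3 (0.38) overlapped. Tlr9, the receptor for unmethylated CpG DNA, was at 4.70 and 3.73 CPM in the weak and 8.54, 12.4 and 7.54 CPM in the strong tumours, with controls at 4.49 to 8.83 CPM (log2 difference 1.17, SE 0.39). Tlr7, a receptor for single-stranded RNA, was at 5.68 and 3.92 CPM in the weak and 6.68, 13.8 and 9.58 CPM in the strong tumours (1.06, SE 0.38). For both genes the control range reached into that of the strong tumours, unlike for the type I genes above. Ikbke, a kinase that activates the interferon regulatory factors, was at 29.1 and 27.8 CPM in the weak and 36.4, 40.5 and 39.1 CPM in the strong ones (0.44, SE 0.13). Tmem173, which encodes the adaptor STING, was at 46.4 and 27.8 CPM in the weak and 61.7, 67.9 and 46.4 CPM in the strong ones. Non-responder 2 thus lay level with responder 1, and Tmem173 counts as separated by a margin below the digits given. The members that overlapped between the groups were the adaptor Mavs (0.08), the kinase Tbk1 (0.07), the transcription factor Irf3 (-0.05), the DNA sensors Cgas (0.29) and Aim2 (-0.18), and Tlr3.

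Genes induced by interferon gamma were shifted in the same direction, but their list score did not divide the tumours. All 24 members lay above 0 (median 0.57), and 7 had an unadjusted p below 0.05. Of the 24, 6 separated above, a larger share than the 11.5% of all genes. Non-responder 2, with a list score of 7.57, lay just below responder 1 at 7.59. Non-responder 1 was at 6.81, and without it the median was 0.18. Igtp, an immunity-related GTPase, was at 475 and 288 CPM in the weak and 583, 712 and 482 CPM in the strong tumours, where controls held 125 to 142 CPM. Cd274, which encodes the PD-1 ligand PD-L1, was at 78.3 and 62.0 CPM in the weak and 95.4 to 168 CPM in the strong ones (0.79, SE 0.27). Ido1, the tryptophan-degrading enzyme, was at 1.01 and 1.57 CPM in the weak and 9.70, 7.90 and 2.74 CPM in the strong ones, and Gbp8 separated as well (0.84). Every weak and strong tumour exceeded every control in Igtp and Cd274.

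Antigen presentation genes had positive differences and mostly overlapped between the groups. All 18 MHC class I genes lay above 0 (median 0.33), but 1 separated above, Tap2 (0.44), which is 5.56% beside 11.5% of all genes. None had an unadjusted p below 0.05, and the median was -0.018 without non-responder 1. Psmb10, an immunoproteasome subunit, was at 105 and 60.2 CPM in the weak and 114, 144 and 95.7 CPM in the strong tumours, and in Psme1 (0.39) and H2-T22 (0.50) responder 1 also lay above non-responder 2. All 11 MHC class II genes lay above 0 (median 0.54) and 1 separated above (9.09%), the protease Ctss (0.62). H2-Ab1 (0.59), Cd74 (0.49) and H2-Eb1 (0.54) overlapped between the groups.

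**Figure D3:**
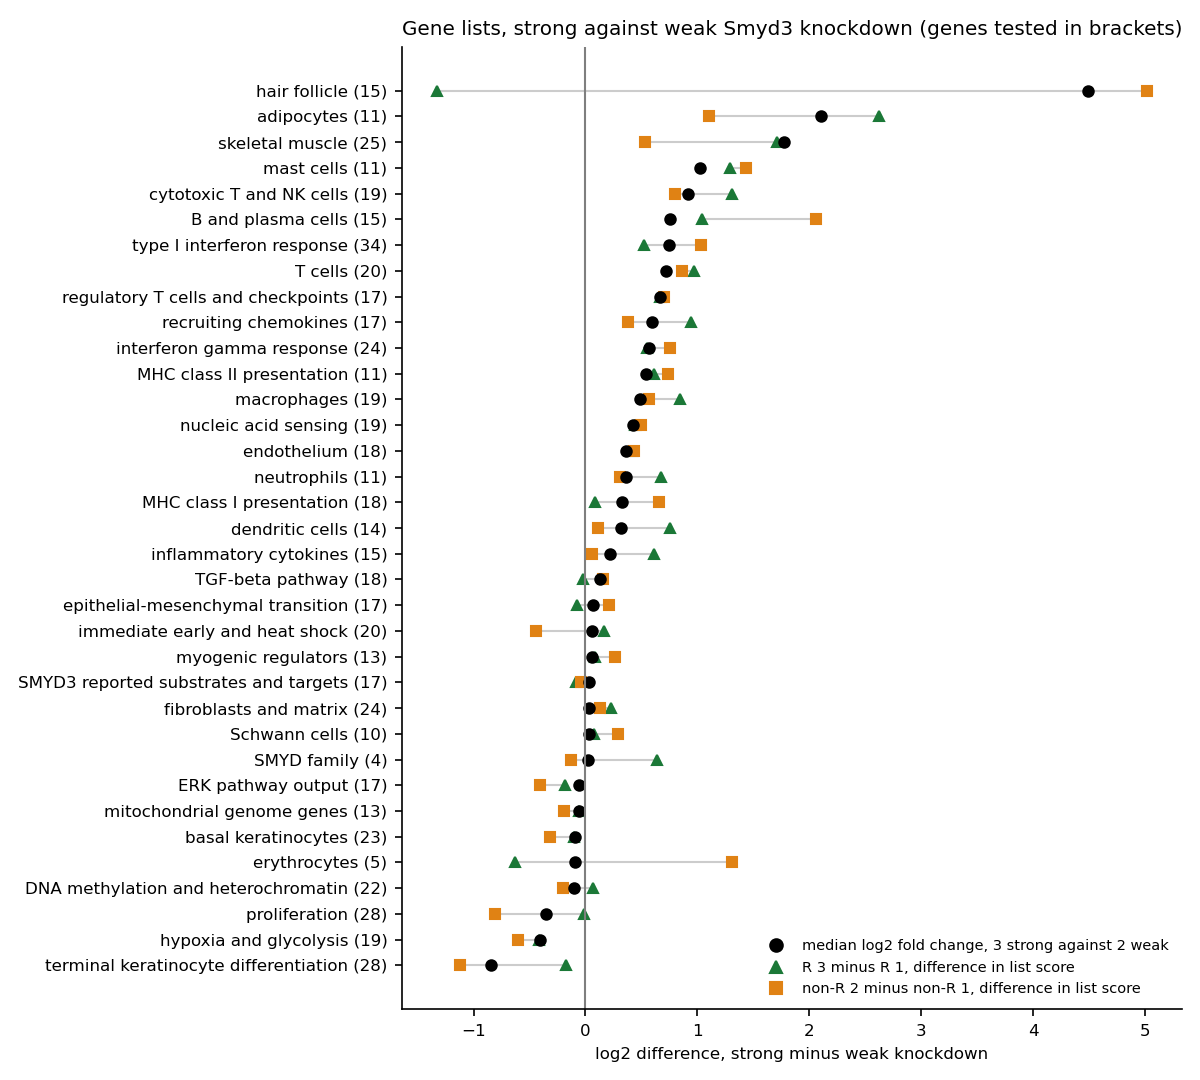
Median log2 difference, strong minus weak, of each gene list, with the list score difference within the 2 responders and within the 2 non-responders beside it. The type I interferon and sensing lists lie above 0 and the hypoxia list below 0 in all 3, whereas the proliferation score differs by -0.010 within responders and -0.81 within non-responders.

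Lymphocyte markers were higher by their medians and overlapped between the groups. The T cell list had 20 of 20 genes above 0 (median 0.72, 2 separated), led by Il7r (0.67), Trbc1 (1.62), Cd3g (0.99) and Cd6 (1.12). The cytotoxic list had 18 of 19 above 0 (median 0.91). Of its members 4 separated above (21.05%, beside 11.5% of all genes) and 1 below (5.26%, beside 12.3%). Gzma, a granzyme, was at 5.23 and 2.07 CPM in the weak and 14.1, 72.3 and 14.9 CPM in the strong tumours (3.20, SE 0.91), and Eomes, a transcription factor of these cells, was at 4.58 and 5.16 CPM in the weak and 2.06, 3.26 and 2.09 CPM in the strong ones (-0.98). Gzma and Eomes, both markers of cytotoxic cells, thus separated in opposite directions. Fasl (1.56) and Klrc1 (1.19) also stood higher, and responder 3 held the highest value in all 3 of Gzma, Fasl and Klrc1. Without responder 3 the medians were 0.32 in the T cell and 0.30 in the cytotoxic list.

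Regulatory T cell and checkpoint genes had a median of 0.67 (14 of 17 above 0), with Havcr2 at 0.52, Lag3 at 0.81 and Il2ra at 0.88. Of these genes 3 separated above (17.65%, beside 11.5% of all genes) and 1 below (5.88%, beside 12.3%). B and plasma cell genes had a median of 0.75 with 1 of 15 separated above (6.67%), the kinase Blk (2.15). This list turned to -0.67 without responder 3, where Igkc, the kappa light chain, reached 1167 CPM against 5.32 to 143 CPM in the other 4 Smyd3 ASO tumours. Chemokines had a median of 0.59 with 16 of 17 above 0 and none separated. Ccl21a (3.82), Cxcl16 (0.38), Ccl7 (0.95) and Ccl5 (0.77) had the smallest p among them. Inflammatory cytokines had a median of 0.22 and turned to -0.21 without responder 1. Among them Nos2, the inducible nitric oxide synthase, separated above (17.6 and 12.2 CPM in the weak, 28.1, 28.9 and 36.0 CPM in the strong tumours), and Cxcl1, a neutrophil attractant, was highest in non-responder 1, at 125 CPM.

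Myeloid lists were mixed. Macrophage genes had a median of 0.48 with 18 of 19 above 0, and 4 separated above (21.05%, beside 11.5% of all genes). Mertk, a receptor for dying cells, was at 14.1 and 15.5 CPM in the weak and 18.9, 31.2 and 29.8 CPM in the strong tumours (0.85, SE 0.27), and Csf1r, the growth factor receptor of macrophages, at 114 and 91.6 CPM in the weak and 146, 223 and 145 CPM in the strong ones (0.74, SE 0.30). Trem2 (0.48) and Lyz2 (0.82) stood higher by their means as well. Dendritic cell genes had a median of 0.31 and turned to -0.20 without responder 3. Itgax (0.48) was the separated member (7.14% of the list), and Clec9a (0.84), Cd209a (1.97) and Batf3 (0.54) overlapped. Neutrophil genes had a median of 0.36 (Retnlg 0.87, Ngp -0.97, Il1r2 0.36, Ltf 1.11) and turned to -0.015 without responder 1. Mast cell genes had a median of 1.03 with 10 of 11 above 0, and Gata2 (1.34), Tpsab1 (1.48), Cpa3 (1.24) and Tpsb2 (1.01) had the smallest p. In Tpsab1, Cpa3 and Tpsb2 the strong tumour without a mark held the lowest value of the 5, below both weak ones.

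Hypoxia and glycolysis genes stood lower in the strong tumours. Of 19 members 18 lay below 0 (median -0.41), 8 separated below (42.1%, beside 12.3% of all genes), and 7 had an unadjusted p below 0.05. The list score was 7.59 and 7.78 in the weak, 7.36, 7.17 and 7.17 in the strong and 7.96 to 8.53 in the control tumours. Both groups of Smyd3 ASO tumours thus lay below the controls, and the strong ones further. The score differed by -0.41 within responders and -0.60 within non-responders.

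Car9, a carbonic anhydrase switched on by low oxygen, was at 21.5 and 23.4 CPM in the weak, 16.3, 11.4 and 13.0 CPM in the strong and 39.6 to 53.7 CPM in the control tumours. The 3 groups did not overlap, and the log2 difference between strong and weak was -0.73 (SE 0.19, unadjusted p = 0.00532, FDR 0.716). Egln3, an oxygen-sensing prolyl hydroxylase, was at 218 and 324 CPM in the weak and 112, 142 and 153 CPM in the strong tumours (-0.997, SE 0.26). Slc2a1, the glucose transporter of tumour cells, was at 265 and 626 CPM in the weak and 232, 138 and 176 CPM in the strong ones (-1.29, SE 0.42), so responder 1 lay close to the strong group. Eno1, a glycolytic enzyme, was at 2442 and 3131 CPM in the weak and 2059, 1759 and 1878 CPM in the strong ones (-0.55, SE 0.17). Pdk1, Ndrg1, Pgk1 and Bnip3 also separated below, and Vegfa (-0.47), Ldha (-0.42), Hk2 (-0.08) and Pfkfb3 (-0.03) overlapped. Leaving out a tumour can only keep or raise the count of separated members. It gave 8 to 13, the most without responder 3 or the tumour without a mark. Over all the left-out sets 17.2% to 32.0% of all genes separated below. The median was -0.27 without non-responder 1.

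Proliferation genes were lower in the strong tumours by their means, with most of the difference between the non-responders. All 28 members lay below 0 (median -0.36), 11 separated below (39.3%, beside 12.3% of all genes), and 6 had an unadjusted p below 0.05. The list score was 5.92 in responder 1 and 6.34 in non-responder 1, and 5.91, 5.91 and 5.54 in the strong tumours. Responder 1, the tumour without a mark and responder 3 were thus level, within 0.010 of each other, and non-responder 1 stood above and non-responder 2 below them. Mcm3, a subunit of the replicative helicase, was at 104 and 122 CPM in the weak and 91.2, 80.2 and 59.3 CPM in the strong tumours, while Cdk1, the mitotic kinase, was at 61.5 and 92.9 CPM in the weak and 58.6, 62.4 and 44.4 CPM in the strong ones. Ccna2 (-0.36) separated and Mcm4 (-0.42) did not. Without non-responder 1 the median was -0.11, and without responder 1, which leaves non-responder 1 as the sole weak tumour, 27 of the 28 members separated, beside 32.0% of all genes. Without non-responder 1 it was 11 members (39.3%), beside 24.3% of all genes, and leaving out a tumour cannot lower this count.

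**Figure D4:**
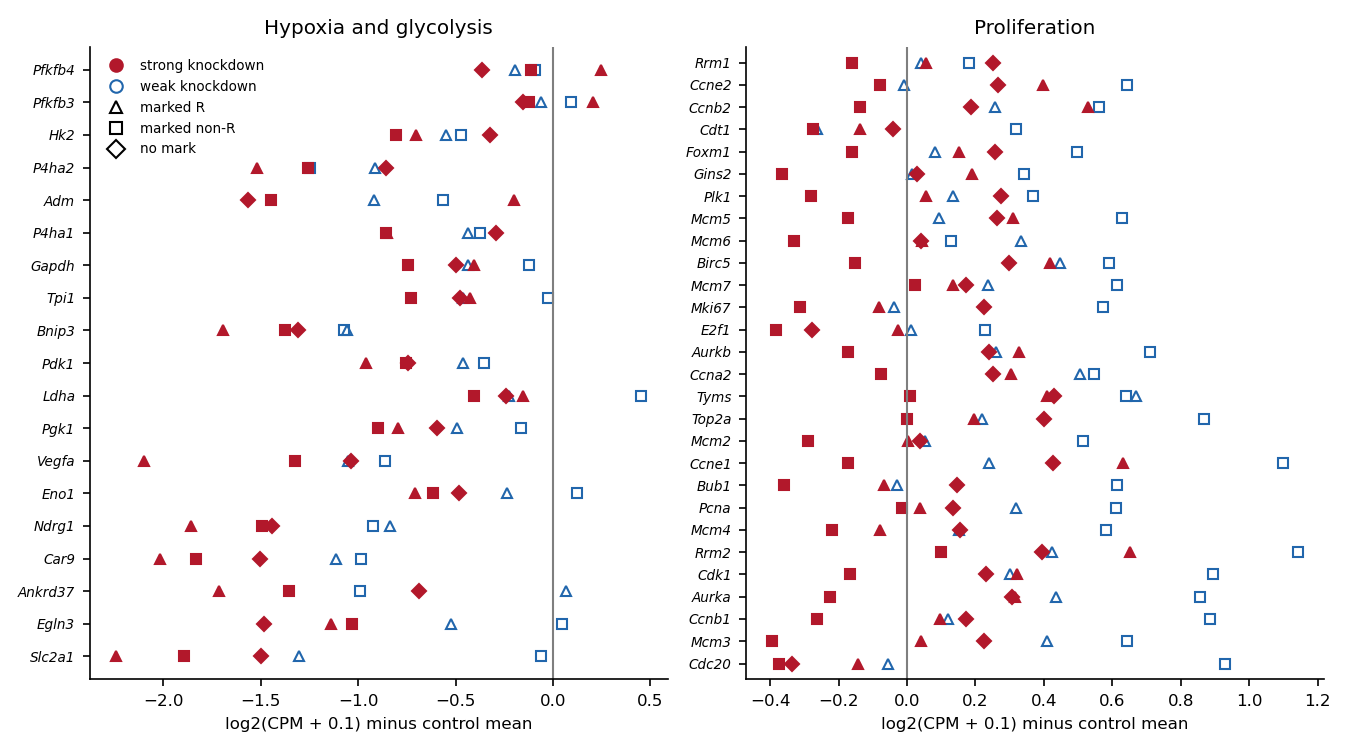
Level of each member of the hypoxia and glycolysis list (left) and of the proliferation list (right) in the 5 Smyd3 ASO tumours, as log2 of CPM plus 0.1 minus the mean of the controls, with filled symbols for strong and open symbols for weak knockdown and shapes for the response mark. In 8 of 19 hypoxia members the strong tumours lie to the left of both weak ones, while proliferation genes spread mainly between the squares of non-responder 1 (right) and non-responder 2 (left).

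Epithelial lists did not follow the knockdown groups. Basal keratinocyte genes showed a median of -0.10, with Cdh3 at 0.42 and Dst at -0.45. Of 23 members 1 (Cdh3) separated above (4.35%, beside 11.5% of all genes) and 2 below (8.70%, beside 12.3%). Terminal keratinocyte differentiation had a median of -0.85 with 25 of 28 members below 0, and it turned to 0.25 without non-responder 1. In that tumour Sprr1b, a cornified envelope protein, was at 263 CPM against 19.1 to 30.5 CPM in the other 4, and Krt16, a keratin of stressed epithelium, at 3129 CPM against 547 to 834 CPM. Ovol1 (-1.45) and Krtdap (-1.05) were also highest there. Hair follicle genes had a median of 4.49 and none separated. Krt27 was at 47.6 CPM in non-responder 2, 4.85 CPM in the tumour without a mark and 0 CPM in responder 3, and Krt25, Dsg4 and Krt33a were likewise highest in non-responder 2, without which the median was -0.45.

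Transcripts of skeletal muscle, a tissue next to a flank tumour, were higher in both Smyd3 ASO groups than in controls and varied widely within each. The 25 members summed to 1608 to 15450 CPM in the strong, 1359 and 3633 CPM in the weak and 450 to 544 CPM in the control tumours, and no member was at 0 in a Smyd3 ASO tumour. Their median difference was 1.77 with 21 above 0, and 1 separated above (4.0%, beside 11.5% of all genes). Myh4, a fast myosin, was at 112 and 116 CPM in the weak and 1312, 2730 and 139 CPM in the strong tumours (3.61, SE 1.65), and it was the separated member. Eno3 (2.06), Myoz1 (2.32) and Ckm (2.54) were lower in non-responder 2 than in responder 1. When the muscle score entered as a covariate, the type I interferon median was 0.52, the sensing median 0.32 and the hypoxia median -0.25. Without the covariate these medians were 0.74, 0.42 and -0.41, so each was smaller in size with it. The muscle score also divides controls from Smyd3 ASO tumours, and the part of muscle content in these lists was not tested. Myogenic regulators had a median of 0.05 (Csrp3 -0.92). Adipocyte genes had a median of 2.10, none separated, and turned to -0.34 without responder 3, where Plin4, Plin1, Cidec and Adipoq reached 56.9, 11.8, 15.9 and 17.2 CPM.

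Stromal lists differed little between strong and weak. The median was 0.03 for fibroblasts and matrix (Fbn1 0.44, Lum 1.27), 0.13 for TGF-beta (Ltbp2 0.68, Tgfbr2 0.16) and 0.07 for epithelial-mesenchymal transition (Mmp2 0.43, Snai2 -0.28). Endothelial genes had a median of 0.36 with 17 of 18 above 0 and 5 separated above (27.8%, beside 11.5% of all genes). Flt4, the receptor of lymphatic endothelium, was at 7.62 and 7.69 CPM in the weak and 19.4, 16.7 and 9.50 CPM in the strong tumours, where controls held 17.6 to 17.9 CPM. The weak tumours were thus below the controls in Flt4, and the tumour without a mark and responder 3 were near them. Kdr (0.58), Ptprb (0.59) and Eng (0.52) showed the same direction. Schwann cell genes had a median of 0.03 (Cdh19 -1.64, Mbp -0.24) and the 5 erythrocyte genes one of -0.10 (Hbb-bt -0.37, Alas2 -0.17), while the mean over the erythrocyte genes was 0.22.

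Genes tied to Smyd3 by family or by reported function did not pass the test. Of its relatives, Smyd2, a methyltransferase of p53 among other proteins, was at 51.9 and 48.9 CPM in the weak and 45.5, 47.8 and 35.6 CPM in the strong tumours (-0.23, SE 0.14), which separates the groups by a narrow margin. Smyd4 (0.19) and Smyd5 (-0.14) overlapped. Smyd1, the muscle member, was at 8.11 and 3.04 CPM in the weak and 19.2, 41.8 and 3.62 CPM in the strong ones (1.95, SE 0.91), and its high and low tumours are those of the muscle list. The list of reported SMYD3 substrates and target genes had a median of 0.03. Of 17 members 2 separated above (11.8%, beside 11.5% of all genes) and 3 below (17.65%, beside 12.3%). H2afz, a histone variant, was at 197 and 219 CPM in the weak and 169, 179 and 154 CPM in the strong tumours (-0.32, SE 0.12), and Cdk2 (-0.24) separated below as well. The members ran from -0.63 in Uhrf1, which overlapped, to 0.52 in Esr1, and 3 had an unadjusted p below 0.05. None of these values passed the test.

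ERK pathway output had a median of -0.05, with Ier3 at -1.02 and Fosl1 at -1.46, and Fosl1 was at 40.9 CPM in non-responder 1 against 7.68 to 10.4 CPM in the other 4. The list of DNA methylation and heterochromatin genes had a median of -0.11. Uhrf1, which guides maintenance methylation, was at 123 and 221 CPM in the weak and 125, 112 and 98.0 CPM in the strong tumours, so responder 1 lay within the strong group. Dnmt3b stood at -0.74. Immediate early and heat shock genes had a median of 0.06 while their mean was -0.05 (Jun -0.35, Egr1 -0.70). Genes of the mitochondrial genome had a median of -0.06, with mt-Nd5 at 0.30 and mt-Atp6 at 0.31.

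**Figure D5:**
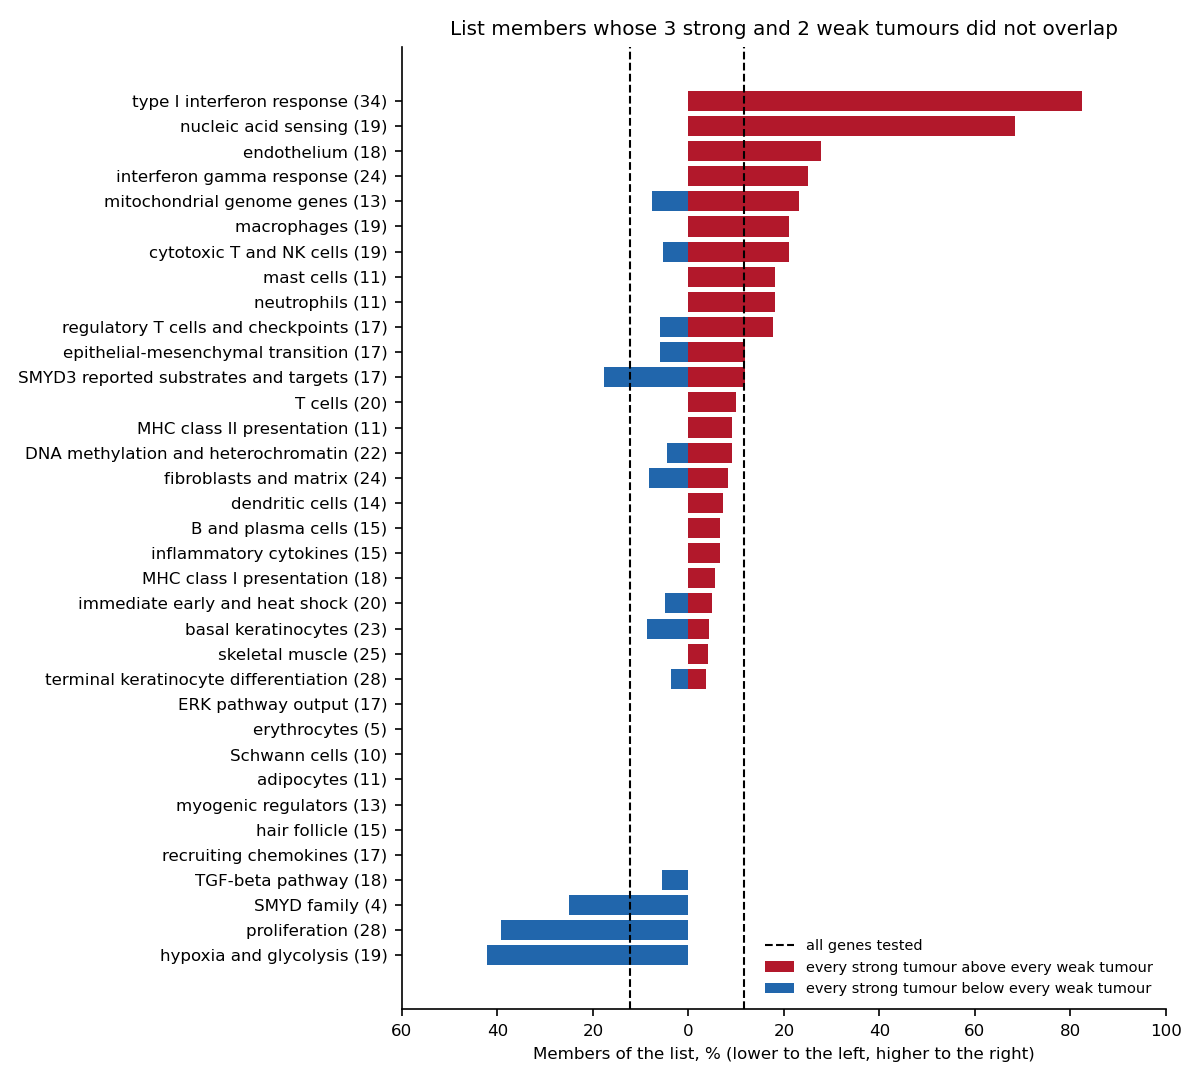
Share of each list's tested members for which all 3 strong tumours lay above both weak tumours, or below them, in percent, with the share over all tested genes drawn as a reference (11.5% above, 12.3% below). The type I interferon list reaches 82.4% and the sensing list 68.4% above, and the hypoxia list 42.1% and the proliferation list 39.3% below.

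Strong and weak tumours were also set beside the same 3 controls. The 2 comparisons share these controls, so their values stand side by side and no overlap is read. Between strong tumours and controls 5 genes passed at an FDR of 0.0497 each (0.0296% of 16910, with 15.3% at an unadjusted p below 0.05), and between weak tumours and controls 0 passed (lowest FDR 0.330, 11.6% at an unadjusted p below 0.05). With 3 strong tumours and 2 weak ones the comparisons also differ in size. In the strong tumours Hap1, a partner of huntingtin, rose by a log2 fold change of 1.68 (SE 0.18), Icam1 by 0.99 (SE 0.09), and the GTPases Igtp and Tgtp1 by 2.12 (SE 0.22) and 2.22 (SE 0.23), and Car9 fell by 1.79 (SE 0.18). Tgtp1 has a near-identical paralogue, Tgtp2, and reads of the pair may be split between them. Against controls the weak tumours showed 0.85 in Hap1, 0.30 in Icam1, 1.49 in Igtp, 1.72 in Tgtp1 and -1.06 in Car9, none passing. Leaving out a control, responder 3 or the unmarked tumour left 0 calls, and 41, 78 and 141 genes were called without responder 1, non-responder 1 and non-responder 2.

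These 5 genes are those in which the strong tumours passed against controls, so smaller values in the weak tumours follow in part from that choice and support no order. Hap1 was at 5.40, 4.46 and 5.30 CPM in the controls, 10.02 CPM in responder 1 and 8.15 CPM in non-responder 1, and 17.0, 14.5 and 17.2 CPM in the strong tumours. The 3 groups did not overlap, as in Car9 and Icam1, whereas in Tgtp1 responder 1 (818 CPM) exceeded non-responder 2 (777 CPM). By lists, the type I interferon median against controls was 1.42 in strong and 0.67 in weak tumours, the sensing median 0.64 and 0.15, the interferon gamma median 1.78 and 1.11 and the hypoxia median -0.83 and -0.42. The proliferation median was 0.07 in strong and 0.41 in weak tumours. In the type I list 31 of 34 members had every strong tumour above every control (11.9% of all genes), and in the hypoxia list 14 of 19 had every strong tumour below every control (10.1% of all genes). In the type I list 9 had both weak tumours above every control (13.8% of all genes), and in the hypoxia list 8 had both below (13.1%).

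A fit with an interaction of knockdown group and response mark was made on the 4 marked tumours and the controls. It called 0 genes (edgeR, 2 residual degrees of freedom, lowest FDR 0.9999, 485 genes at an unadjusted p below 0.05), and with 1 tumour in each cell of that table it has little power. The strong minus weak contrast with the response mark as a term, on the same 4 tumours and the controls, also called 0 genes. This fit leaves out the strong tumour without a mark. Each group then holds 1 responder and 1 non-responder, so the term could hardly move the difference. In the type I interferon list its median was 0.75, in the sensing list 0.47 and in the hypoxia list -0.45. Without the term and with all tumours the medians were 0.74, 0.42 and -0.41.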

How the data were processed

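PolyA RNA of 8 tumours was sequenced with a stranded TruSeq kit, per the labels' protocols. The deposited table holds expected counts per gene, as the authors' RSEM output gives them, not scaled to depth. Per the submitters' processing notes, STAR 2.7.0f, RSEM 1.3.0, cutadapt 1.18, bcl2fastq 2.17 and build mm10 were used. The annotation is not given in the sources used here, and all 55450 gene identifiers were found in GENCODE M21, the source of symbols and coordinates. Every column belonged to a labelled sample. Non-responders carry no replicate number in the labels and are called 1 and 2 in listed order.

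Expected counts were rounded. Genes with at least 0.424 CPM in 2 libraries and 15 counts in all were kept (16911, holding 99.9% of counts). Control (3), strong (3) and weak (2) tumours were fitted together in edgeR 4.0.16 (R 4.3.3, TMM, robust quasi-likelihood, two-sided, Benjamini-Hochberg over all genes, FDR 0.05, 5 residual degrees of freedom). Log2 differences are edgeR's, and list scores use log2 CPM with a prior count of 2. The script steps were tested on simulated data. Alternatives used DESeq2 1.42.0, limma 3.58.1 (voom), other scaling, no filter, other sample sets, covariates and left-out libraries.

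The groups, the 35 gene lists (615 genes, 591 tested) and the tests were chosen with earlier results of these data known. Named genes are Smyd3, the 12 of smallest p in each direction that separate the groups, average 0 log2 CPM or more and have no predicted-gene name, up to 4 members of each list by smallest p (2 where the list median lies within 0.3 of that of all genes), the SMYD family and the 3 tested genes on each side of Smyd3. Others, such as Tmem173, Mavs, Tbk1, Irf3, Cgas, Aim2, Pdk1, Ndrg1, Pgk1, Bnip3, Vegfa, Ldha, Hk2, Pfkfb3, Hap1, Tgtp1, Tlr3, Esr1, Krt5 and Krt14, and further ones in the closing section, were named after their values were seen. The main fit did not pair samples by replicate number. Same-numbered deviations correlated at -0.034, 0.00015 and 0.076 and the others at -0.15 to 0.14, and so few values cannot exclude a pairing. Some genes that this rule names are not reported here.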

Additional observations from a re-analysis of the deposited data

Results flagged for a closer look

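Among the 131 genes and scores screened over the 5 Smyd3 ASO tumours, 6 had 1 tumour far from the other 4, and in all 6 it was the weak tumour non-responder 1. Chance flags about 1 group in 20, and 6 of 131 is near that rate. Many of the screened genes were chosen by their strong minus weak values, so the flags are described only. Non-responder 1 held 125 CPM of Cxcl1 (32.2 to 42.3 CPM in the other 4), 263 CPM of Sprr1b (19.1 to 30.5), 94.4 CPM of Ovol1 (16.6 to 24.5), 3129 CPM of Krt16 (547 to 834), 40.9 CPM of Fosl1 (7.68 to 10.4) and 11.2 CPM of Dnmt3b (4.15 to 5.31). The negative strong minus weak values of these genes rest on this tumour.

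For 7 of 35 lists the score of the strong tumour exceeded that of the weak tumour in one pair of tumours with the same mark and lay below it in the other. These differences were not tested, since each rests on 1 tumour per group. Within responders and within non-responders they were -0.018 and 0.15 in TGF-beta, -0.075 and 0.21 in epithelial-mesenchymal transition, -1.32 and 5.01 in hair follicle, -0.63 and 1.31 in erythrocytes, 0.64 and -0.13 in the SMYD family, 0.069 and -0.20 in DNA methylation and heterochromatin, and 0.16 and -0.44 in immediate early and heat shock genes.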

How the results depend on the processing

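For strong against weak, 0 calls were found in 18 of 20 alternatives. DESeq2 called 15 (10 higher and 5 lower), among them Icam1, Olr1, Tmpo and Gzma, and leaving out a library gave 0 to 1, the 1 being Has3 (-4.20) without responder 1. For strong against control, the 5 calls became 0 with upper-quartile factors, 1107 with DESeq2, 111 without a filter, 214 with the response mark as a term, 198 in the 6 numbered libraries without and 19 with the replicate block, 8 with the Smyd3 percentage as a covariate, 0 with the muscle score as a covariate, and 0 to 141 without a library. For weak against control, DESeq2 called 412, the response mark term 2 (Des and Srcap), and leaving out a library gave 0 to 1. The cause of these shifts was not tested. The 6 numbered libraries hold 2 strong tumours and responder 1 as the sole weak one. The replicate block gave 0 strong against weak calls. No pairing by replicate number was assumed in the main fit.

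Of 96 named genes, 18 changed sign in some setting. With the replicate block the values were 0.72 in Cxcl1, -0.11 in Klrc1, -6.72 in Igkc, -0.23 in Fbn1, 1.05 in Sprr1b, 0.39 in Ovol1, 0.72 in Krt16, -0.86 in Krt27, 0.00022 in Mcm4, 0.092 in Cdk1, 0.42 in Uhrf1, 0.49 in Dnmt3b, 0.21 in Smyd5, -0.16 in Kif26b, 0.080 in Tfb2m and 0.29 in Cnst. In the 6 numbered libraries without it they were 0.32 in Cxcl1, 0.0012 in Ovol1, 0.11 in Krt16, -0.0022 in Kif26b and 0.17 in Cnst. Leaving out a library gave -1.63 to 0.34 in Cxcl1, -2.18 to 0.047 in Ovol1, -2.14 to 0.24 in Krt16, -1.24 to 0.0036 in Dnmt3b and -0.21 to 0.12 in Cnst, each turning without non-responder 1 (Cnst also, at 0.014, without non-responder 2). It gave -0.55 to 6.02 in Igkc and -0.51 to 10.2 in Adipoq, turning without responder 3, and -0.43 to 0.18 in Sccpdh, turning without responder 1. Over the 20 alternatives the list median ran from 0.38 to 1.19 in type I interferon, 0.30 to 0.69 in nucleic acid sensing and -0.55 to -0.25 in hypoxia, and from -0.54 to 0.27 in proliferation, which changed sign in the 6 numbered libraries. At 112 to 214 counts, the Smyd3 percentages carry counting error beside the spread between tumours.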

Other observations

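A pair of gene groups was described after their members' values had been seen, so their counts are descriptions and support nothing. Genes of lysosomal hydrolases and membrane proteins stood higher in the strong tumours, with 32 of 35 above 0 and a median of 0.33. In this group 17 separated above (48.6%, beside 11.5% of all genes). Man2b2 was at 51.5 and 43.8 CPM in the weak and 67.0, 68.6 and 72.2 CPM in the strong tumours, and Glb1, the lysosomal beta-galactosidase, at 28.0 and 24.6 against 37.9, 41.3 and 34.2 CPM. In Man2b2 and Glb1 the controls, at 59.9 to 65.6 and 33.7 to 37.1 CPM, lay above both weak tumours. The list score was 6.41 and 6.18 in the weak, 6.55, 6.73 and 6.52 in the strong and 6.49 to 6.67 in the control tumours. Both weak tumours thus lay below the control range and responder 3 above it, with the other strong tumours inside it.

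Ribosome biogenesis genes ran the other way, with 33 of 34 below 0, a median of -0.28 and 14 separated below (41.2%, beside 12.3% of all genes). Rrs1 was at 56.0 and 62.5 CPM in the weak and 38.9, 36.3 and 37.8 CPM in the strong tumours, and Nop58, a core protein of small nucleolar particles, at 133 and 155 against 114, 97.0 and 105 CPM. The list score was 6.27 in responder 1, 6.69 in non-responder 1 and 6.19 to 6.21 in the strong tumours, with controls at 6.03 to 6.39. It differed by -0.072 within responders and -0.48 within non-responders, so most of it lay in non-responder 1.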
